A study of Mus musculus with 3 samples.

Results

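The BCL2 family decides whether a stressed cell undergoes mitochondrial apoptosis, and 10 of its mouse genes were followed here in LT-HSCs, the long-term haematopoietic stem cells of the marrow that sustain blood formation. They were Bcl2a1a, Bcl2a1b, Bcl2a1d, Bcl2, Bcl2l1, Mcl1, Bcl2l11, Bax, Bak1 and Bid, chosen by gene symbol with their levels on these arrays already known. All values of these genes are therefore given as a description. Of the 10 genes, 8 had a row under their symbol among the 23185 named genes of the table, and Bcl2a1d and Bax were not analysed here. All 8 read above the detection level on all 3 arrays. The LT-HSCs came from female C57Bl/6 mice, 8 to 10 weeks old, in 3 groups. A FLASH group received 8 Gy of total body irradiation (TBI) at an ultra-high dose rate, a CDR group received 8 Gy, and the remaining group was left non-irradiated. CDR is taken to be conventional dose rate from general use. Each sample held 10000 LT-HSCs, taken 15 days after TBI in the irradiated groups, and its total RNA was hybridised to an Affymetrix array. Each group had 1 array, and neither the number of mice behind an array nor the sort gate is given in the sources used here. No test was therefore possible, no difference below has a replicate error, and "higher" and "lower" describe these 3 arrays.

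BCL2 proteins act at the outer mitochondrial membrane. The effectors BAX and BAK1 open it and release cytochrome c, the pro-survival proteins BCL2, BCL-XL, MCL1 and A1 hold the effectors in check, and the BH3-only proteins such as BIM and BID relay stress signals by binding the other members. MCL1 is required for the survival of mouse haematopoietic stem cells. A1 is a short-lived pro-survival protein, known as a target of NF-kappaB, that is made by several near-identical mouse genes. It is found mainly in granulocytes, mast cells, dendritic cells and activated lymphocytes.

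The Bcl2a1 copies carried the large differences of the family, so a stretch of each copy's promoter from RefSeq (build GRCm38.p6) is shown to make their likeness visible. The capitals mark GAGGAAGT, a motif of PU.1, a transcription factor of myeloid and lymphoid cells. The stretches are written on the strand of their gene and all lie on chromosome 9, at chr9:88956780-88956883 (plus strand) for Bcl2a1a, chr9:89199089-89199192 (plus) for Bcl2a1b, chr9:88731887-88731984 (minus) for Bcl2a1d and chr9:114329885-114329988 (plus) for Bcl2a1c, a further copy outside the 10 genes.
Bcl2a1a: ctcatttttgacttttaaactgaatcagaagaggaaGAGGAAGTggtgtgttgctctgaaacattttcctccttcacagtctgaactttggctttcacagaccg
Bcl2a1b: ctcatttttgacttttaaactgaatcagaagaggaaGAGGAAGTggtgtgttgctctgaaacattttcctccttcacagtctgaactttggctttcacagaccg
Bcl2a1d: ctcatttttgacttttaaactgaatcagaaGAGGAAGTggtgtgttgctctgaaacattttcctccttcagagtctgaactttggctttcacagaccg
Bcl2a1c: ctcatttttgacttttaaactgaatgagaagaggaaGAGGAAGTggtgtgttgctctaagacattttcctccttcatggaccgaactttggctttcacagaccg

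Over these 104 bases Bcl2a1a and Bcl2a1b were identical. Bcl2a1d matched Bcl2a1a at 97 bases, had 1 substitution, C77G, counted from 1 at the 5′ end of the Bcl2a1a stretch, and lacked 6 bases, so that it held 1 GAGGAA where the other copies held 2. Bcl2a1c differed from Bcl2a1a by 7 substitutions. Over the parts of their 300-base promoter windows that could be aligned (250 bases before the start to 50 after), Bcl2a1a and Bcl2a1b shared 254 of 256 bases. The stretches shown lie upstream of the start, so their likeness does not tell how alike the transcripts are. Transcripts of the copies were not compared here. As near-identical genes the copies may share signal between their probe sets, and how the array's probes separate them was not tested. On either strand GAGGAAGT occurred in 3.2% of the 32851 promoter windows of the table. Of the other BCL2 family genes followed, Bak1 held it, on the opposite strand. A 10-base NF-kappaB consensus motif, found in 1.63% of windows, had no match in the windows of the 4 Bcl2a1 copies, and matched in Mcl1 and in 1 of 3 windows of Bcl2l1. TTCNNNGAA, a STAT motif found in 8.3% of windows, had no match in any member's window. These matches describe letters in a window and not binding.

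Levels are the authors' processed values on the log2 scale, and a difference is the difference of 2 arrays' log2 levels. A gene was counted as detected in a comparison when its brighter array read above the detection level, the 95th percentile of 1364 chemosensory receptor genes (olfactory, vomeronasal, trace amine) that marrow is presumed not to use. That level was 4.22 after FLASH, 4.16 after CDR and 4.15 without irradiation. The median over all detected genes was 0.00 in each of the 3 comparisons. The central 95% of detected genes lay between -0.85 and 0.69 for FLASH against non-irradiated, between -0.96 and 0.65 for CDR against non-irradiated, and between -0.37 and 0.46 for FLASH against CDR.

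**Figure D1:**
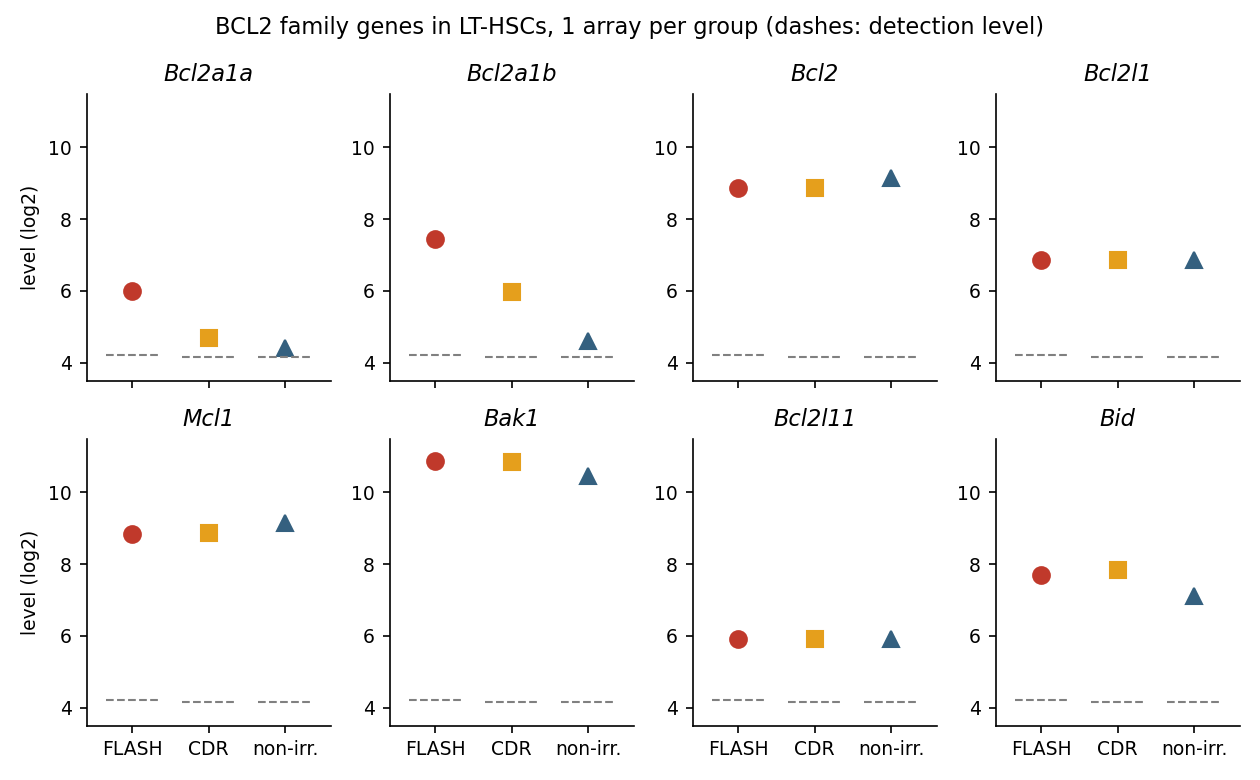
Log2 level of 8 BCL2 family genes on the FLASH (circle), CDR (square) and non-irradiated (triangle) arrays, 1 array per group, with each array's detection level as a dashed line. Bcl2a1b read 7.44, 5.98 and 4.60 in that order and Bcl2a1a 6.00, 4.70 and 4.41, while the other 6 genes lay within 2-fold on all arrays.

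Both measured Bcl2a1 copies read highest on the FLASH array and lowest on the non-irradiated array. Bcl2a1b read 7.44 after FLASH, 5.98 after CDR and 4.60 without irradiation. Bcl2a1a read 6.00 after FLASH, 4.70 after CDR and 4.41 without irradiation. The readings of both copies without irradiation lay near the detection level, as did that of Bcl2a1a after CDR. Bcl2a1c stayed under the detection level throughout, at 2.73, 2.26 and 2.55 on the FLASH, CDR and non-irradiated arrays. An order of FLASH above CDR above non-irradiated was held by 9.03% of the 13514 genes detected in any comparison.

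Against the non-irradiated array, Bcl2a1b was 2.84 higher on the FLASH array (7.17-fold) and Bcl2a1a 1.59 higher (3.01-fold). Of 13288 detected genes, 10 had a larger positive difference than Bcl2a1b and 58 than Bcl2a1a. With antibody and T cell receptor segments left out, a choice made after values were seen, 1 gene of 13104 exceeded Bcl2a1b and 34 exceeded Bcl2a1a. On the CDR array Bcl2a1b was 1.38 higher than on the non-irradiated array, with 46 of 13448 detected genes above it. Bcl2a1a was 0.29 higher there (1.22-fold), well inside the central 95% of genes. Both of these comparisons use the same non-irradiated array.

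Between the irradiated arrays, which received the same dose, the copies differed by similar amounts. Bcl2a1b was 1.46 higher after FLASH than after CDR (2.76-fold) and Bcl2a1a 1.31 higher (2.47-fold). Of 13184 detected genes, 75 had a larger positive difference than Bcl2a1b and 83 a larger one than Bcl2a1a. With antibody and T cell receptor segments left out, 4 of 13016 genes exceeded Bcl2a1b and 8 exceeded Bcl2a1a.

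In all, 2 of the 8 genes passed 2-fold upward between FLASH and non-irradiated, as did 1.17% of detected genes, and 0 passed it downward, as did 1.75%. Between CDR and non-irradiated 1 of 8, Bcl2a1b, passed 2-fold upward against 0.766% of detected genes, and 0 passed it downward against 2.36%. Between FLASH and CDR 2 of 8 passed it upward against 0.85% of detected genes, and 0 downward against 0.144%. By direction alone, 4 were higher, 2 lower and 2 tied for FLASH against non-irradiated, where 33.8%, 33% and 33.2% of detected genes were. For CDR against non-irradiated the 8 also split into 4 higher, 2 lower and 2 tied, beside 34.7%, 30.4% and 34.9%. For FLASH against CDR 3 were higher, 3 lower and 2 tied, beside 25.6%, 31.9% and 42.4%. Since the genes were picked with these levels known, the counts say nothing beyond the values themselves. The median over the 8 genes was 0.20 for FLASH against non-irradiated, 0.14 for CDR against non-irradiated and 0.00 for FLASH against CDR.

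Of the 5 fold calls of the copies, 3 were lost when dim readings were given less weight. With an offset of 32 added before the log, Bcl2a1a was 0.85 higher on the FLASH than on the non-irradiated array and 0.73 higher than on the CDR array, and Bcl2a1b was 0.76 higher on the CDR than on the non-irradiated array, each under 2-fold. Bcl2a1b stayed above 2-fold at 1.87 for FLASH against non-irradiated and 1.11 for FLASH against CDR.

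The other pro-survival genes read slightly lower on both irradiated arrays or were tied. Mcl1 read 8.83 after FLASH, 8.87 after CDR and 9.16 without irradiation, a difference from non-irradiated of -0.32 for FLASH and -0.28 for CDR. Bcl2, the founding member of the family, read 8.86 on both the FLASH and the CDR array and 9.13 on the non-irradiated array, -0.27 for each. Values lower than these were found for 11.6% (Mcl1) and 13.3% (Bcl2) of detected genes on the FLASH array, so both lay within the bulk of genes. FLASH minus CDR was -0.04 for Mcl1 and 0.00 for Bcl2. Both genes were in the order FLASH below CDR below non-irradiated, as were 8.92% of the genes detected in any comparison, but the sign of the FLASH minus CDR value of Bcl2 turned under 1 of 5 alternative treatments of the values. Bcl2l1, which encodes BCL-XL, read 6.85 on all 3 arrays.

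The tie of Bcl2l1 was exact to the last deposited digit, as was that of Bcl2l11. Such ties were common, since 39.8% of named genes, and 27.1% of those detected in any comparison, carried a single value across the 3 arrays. Values were also shared between genes, since the FLASH array held 12735 distinct values for 25206 probe sets, the CDR array 12484 and the non-irradiated array 13584. The reading of Bcl2l11 was held by 19 other named genes after FLASH, 19 after CDR and 18 without irradiation, and that of Bcl2l1 by 5, 4 and 2. An exact tie does not show an equal transcript level, and what produced the ties was not tested.

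Among the pro-apoptotic genes, Bid and Bak1 read higher on both irradiated arrays. Bid encodes the BH3-only protein that caspase-8 cleaves to link death receptors to mitochondria. It read 7.70 after FLASH, 7.84 after CDR and 7.11 without irradiation, 0.59 higher on FLASH and 0.73 higher on CDR (1.66-fold). On the CDR array 1.81% of detected genes stood higher than Bid and on the FLASH array 3.57%, so that Bid lay outside the central 95% of genes in the CDR comparison and inside it in the FLASH comparison. Bid was -0.15 on FLASH relative to CDR.

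Bak1, the gene of the effector BAK, read 10.87 after FLASH, 10.85 after CDR and 10.47 without irradiation. That was 0.40 higher on FLASH (1.32-fold) and 0.38 higher on CDR (1.30-fold), with 7.29% and 7.51% of detected genes higher. FLASH minus CDR was 0.02, a sign that turned under 2 of 5 alternatives. Bcl2l11, which encodes the BH3-only protein BIM, read 5.93 on all arrays.

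**Figure D2:**
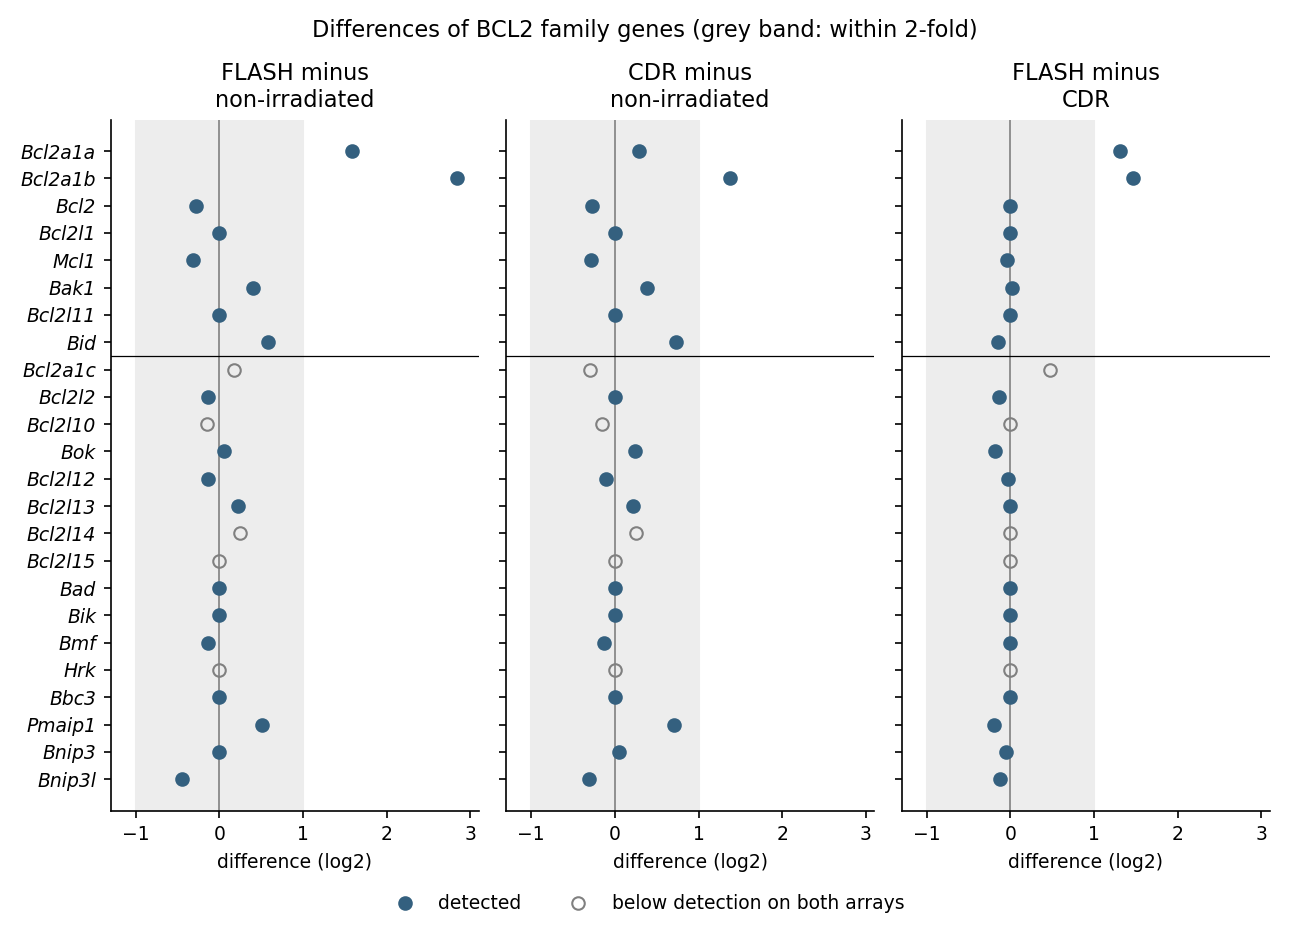
Log2 differences of 8 BCL2 family genes (above the line) and 16 further family genes (below it) for FLASH minus non-irradiated, CDR minus non-irradiated and FLASH minus CDR. Filled points were detected, open points were under the detection level, and in each panel only Bcl2a1 copies lie outside the grey 2-fold band.

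Of 16 further genes of the family, 11 were detected and all 11 lay within 2-fold in each comparison, where 2.92%, 3.12% and 0.994% of detected genes were at least 2-fold different for FLASH against non-irradiated, CDR against non-irradiated and FLASH against CDR. Pmaip1, the p53-induced BH3-only gene known as Noxa, had the largest positive differences among them. It read 6.09 after FLASH, 6.28 after CDR and 5.57 without irradiation, 0.51 and 0.71 above non-irradiated. Bnip3l, a gene of mitophagy and red cell maturation, stood lowest at -0.45 on FLASH and -0.31 on CDR. Bok was at 0.05 and 0.24 and Bcl2l13 at 0.22 on both.

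Bbc3, the gene of the p53 target PUMA, read 4.93 on all arrays, and Bad and Bik were likewise tied. Between FLASH and CDR, 0 of the 11 genes were higher, 6 were lower and 5 were tied, beside 25.6%, 31.9% and 42.4% of all detected genes. The lowest value was -0.20 for Pmaip1. The median of the 11 was 0.00 against non-irradiated on both irradiated arrays and -0.03 between them, beside 0.00 over all detected genes. Bcl2a1c, Bcl2l10, Bcl2l14, Bcl2l15 and Hrk were under the detection level on all arrays.

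Beyond the family, 6 lists were read. They covered mitochondrial apoptosis, the death receptors, p53 and its targets, NF-kappaB, cytokine survival signalling and the regulators of MCL1 and BIM. Together with the further family genes they held 90 named genes, of which 82 were detected in each comparison. At least 2-fold differences were found for 0 of the 82 in each of the 3 comparisons. Among all detected genes the shares were small as well, at 2.92% for FLASH and 3.12% for CDR against non-irradiated, and 0.994% for FLASH against CDR. List medians ran from -0.07 to 0.05, beside 0.00 over all detected genes.

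Genes of the mitochondrial pathway were detected for 15 of 15 named genes. On the FLASH array 8 were higher, 4 lower and 3 tied relative to non-irradiated, beside 33.8%, 33% and 33.2% of all detected genes. For the CDR array the counts were 9, 4 and 2, beside 34.7%, 30.4% and 34.9%. Aifm1, which encodes apoptosis-inducing factor, read 7.70 after FLASH, 7.78 after CDR and 7.08 without irradiation, 0.62 and 0.70 above non-irradiated. The channel gene Vdac2, whose product binds BAK, was at 0.35 and 0.56. Apaf1, the scaffold of the apoptosome, was at 0.18 and 0.26, and Casp9, the caspase it activates, was tied.

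The inhibitor of apoptosis genes stood on both sides. Birc3 read 7.45 after FLASH, 7.43 after CDR and 8.08 without irradiation, which is -0.63 and -0.65 from non-irradiated. Birc2 was at -0.38 on both. Birc5, the gene of survivin, which also serves in mitosis, was at 0.49 and 0.42.

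Death receptor and caspase-8 genes had 9 detected members, with a median of 0.00 in every comparison. Cflar, the gene of the caspase-8 inhibitor FLIP, read 6.66 after FLASH, 6.76 after CDR and 7.06 without irradiation, -0.40 and -0.29 from non-irradiated. Casp8, whose product cleaves BID, differed by 0.02 and 0.00. Fas read 3.41 on all arrays, under the detection level.

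The 15 detected genes of p53 and its targets also had a median of 0.00 in each comparison. Phlda3, an inhibitor of AKT signalling, was at 0.51 on FLASH, as Pmaip1 was, and at 0.09 on CDR against non-irradiated. Trp53inp1 was at -0.27 and -0.65. Zmat3 was at 0.29 on both, and Aen, a nuclease gene, was tied on FLASH and at 0.34 on CDR.

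Among NF-kappaB factors and targets, 14 genes were detected. On the FLASH array 4 were higher and 8 lower than on the non-irradiated array, and on the CDR array 4 and 5, beside 33.8% higher and 33% lower among all detected genes for FLASH and 34.7% and 30.4% for CDR. Among the lower ones, Birc3, given above, also stands in this list, and Nfkbiz was at -0.43 on FLASH and -0.26 on CDR. Tnf was at 0.60 on FLASH and 0.77 on CDR, and Tnfaip3, which encodes the inhibitor A20, at 0.43 and 0.49. Cd83, a marker of mature dendritic cells, was at 0.59 and 0.06, and was 0.53 higher on FLASH than on CDR. The subunit genes Rel and Rela differed by -0.02 and 0.00 on FLASH and by 0.00 each on CDR.

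In cytokine survival signalling, Csf2rb, the shared receptor chain for IL-3, GM-CSF and IL-5, read 8.43 after FLASH, 8.65 after CDR and 7.87 without irradiation, 0.55 and 0.78 above non-irradiated. Kit, the stem cell factor receptor, was at -0.87 and -0.47. Cish, a feedback inhibitor induced by STAT5, was at -0.51 and -0.62, while Stat5a and Stat5b were within 0.17 of non-irradiated on both arrays. Among the 8 regulators of MCL1 and BIM, Btrc was lowest at -0.39 on FLASH and -0.40 on CDR. Foxo3, a transcription factor known to activate the BIM gene, was at -0.35 and -0.39, and Usp9x, a deubiquitinase of MCL1, at 0.24 and 0.30.

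**Figure D3:**
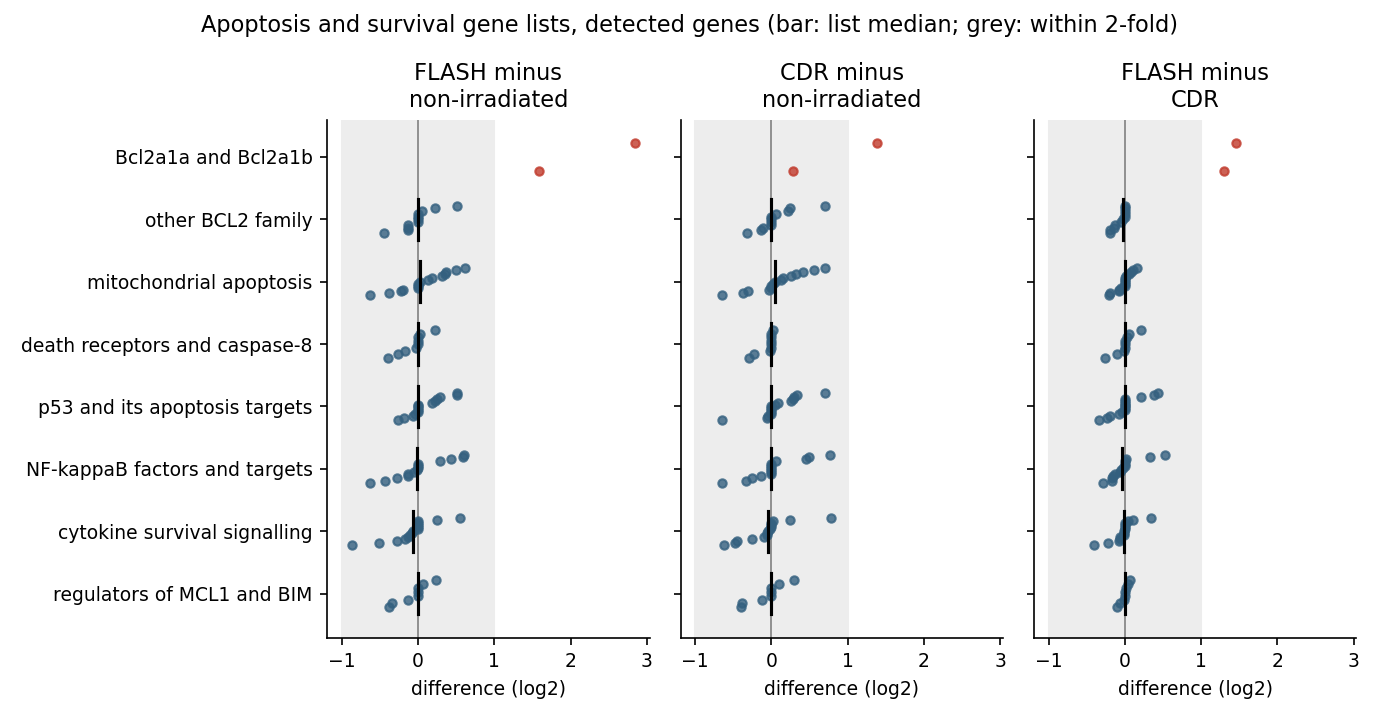
Log2 differences of the detected genes of 7 apoptosis and survival gene lists (blue points, one per gene, with the list median as a black bar) beside Bcl2a1a and Bcl2a1b (red), for the 3 comparisons. All blue points lie inside the grey 2-fold band, with Kit lowest at -0.87 and Csf2rb highest at 0.78.

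Markers of LT-HSCs and of other marrow cells were read beside the Bcl2a1 values, since A1 is known from several mature lineages. In RNA from a population, a change in the share of a cell type and a change in RNA per cell cannot be told apart. All 9 named LT-HSC markers read above the detection level on each array, and so did markers of other lineages, such as the granule genes Mpo and Elane. The LT-HSC markers had a median of -0.58 on FLASH and -0.64 on CDR against non-irradiated, with 1 and 3 of 9 at least 2-fold lower, beside 1.75% and 2.36% of all detected genes. Hlf, a transcription factor of stem cells, read 8.02 after FLASH, 7.92 after CDR and 9.92 without irradiation. Procr, the gene of the stem cell surface marker EPCR, was at -0.82 on FLASH and -1.73 on CDR, and Meis1 at -0.84 and -1.26.

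Dendritic cell genes were higher in all 3 comparisons, as the Bcl2a1 copies were. Of 9 detected, 8 passed 2-fold upward between FLASH and non-irradiated (1.17% of all detected genes), with a median of 1.91. Between CDR and non-irradiated 4 of 8 did (0.766% of all), with a median of 0.996. FLASH against CDR gave 6 of 9 (0.85% of all), with a median of 1.16. Some of these genes were known from earlier results of these arrays to be high on FLASH, so their count is a description as well. The list's mean log2 level over 11 named genes was 7.21 after FLASH, 6.36 after CDR and 5.70 without irradiation.

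Clec9a, a receptor of type 1 dendritic cells, read 6.38 after FLASH, 5.18 after CDR and 4.23 without irradiation. Xcr1, the chemokine receptor of the same cells, read 6.11, 5.24 and 4.20 in that order. The readings of Clec9a and Xcr1 without irradiation lay just above that array's detection level of 4.15. Itgax, the gene of CD11c, read 4.32 after FLASH, just above that array's detection level, and 4.01 on each of the other arrays, under theirs. Siglech, of plasmacytoid dendritic cells, and Cd209a were under the detection level on all 3 arrays. The MHC class II genes of this list (H2-Aa, H2-Ab1, H2-Eb1 and Cd74), which B cells also express, were 1.23 to 2.36 higher on FLASH and 0.31 to 1.06 higher on CDR against non-irradiated.

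Markers of other cells that express A1 did not follow one direction. Of 10 detected granulocyte genes, 1 passed 2-fold upward and 3 downward on each irradiated array against non-irradiated, beside 1.17% upward and 1.75% downward among all detected genes for FLASH and 0.766% and 2.36% for CDR. Lcn2 was at 1.42 on FLASH and 2.17 on CDR, and S100a9 at -1.31 and -2.25. Camp was at -1.42 on FLASH and at least 3.35-fold lower on CDR, where it read under the detection level. Ngp was at -1.69 and -1.67, while Ly6g and Ltf were under the detection level on all arrays. Of 8 mast cell and basophil genes, Tpsb2 was at least 6.31-fold higher after FLASH. It was at least 3.34-fold higher after CDR, with its non-irradiated reading under the detection level. Prss34 was at -1.38 and -2.71, and Cpa3 at -0.09 on both. Between FLASH and CDR, Prss34 was 1.33 higher and Tpsb2 0.92 higher, and the list's median was 0.09.

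Of the monocyte and macrophage genes, 1 of 8 detected was at least 2-fold higher on FLASH (1.17% of all detected genes) and 2 of 9 on CDR (0.766%), with Clec5a at 1.54 and 1.99 and Ccr2 at 0.59 and 1.46. On FLASH 4 of the 8 were lower and 2 higher, beside 33% and 33.8% of all detected genes, with a median of -0.07. Csf1r, Ly6c2, Ms4a6c and Cd68 were at -0.78, -0.59, -0.57 and -0.14. On CDR 6 of 9 were higher and 0 lower, beside 34.7% and 30.4%, with a median of 0.16. In FLASH against CDR the list ran opposite to the copies, with 6 of 8 genes lower and 0 higher, beside 31.9% and 25.6%. Its median there was -0.58, with Csf1r lowest at -1.01. B cell and plasma cell genes had a median of -0.10 on FLASH, -0.46 on CDR and 0.14 between them. Jchain was at -0.41 on FLASH and -2.14 on CDR and Pou2af1 at 0.43 and -1.03, so that Jchain was 1.72 and Pou2af1 1.46 higher after FLASH than after CDR, while Cd79b was at -0.52 in that comparison. Erythroid genes had a median of 1.56 on FLASH and 1.19 on CDR against non-irradiated but 0.25 between FLASH and CDR. On FLASH, Ermap was at 1.73, Hbb-bs at 1.68, Rhag at 1.67 and Klf1 at 1.44, and on CDR they were at 1.40, 1.51, 1.62 and 0.98. T and NK cell genes had medians of 0.06 and 0.06 against non-irradiated, and megakaryocyte genes -0.39 and -0.46, with Mmrn1 at -1.89 and -1.95 and Gp9 at -1.23 and -1.07. The part of any of these cell types in the Bcl2a1 readings was not tested.

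**Figure D4:**
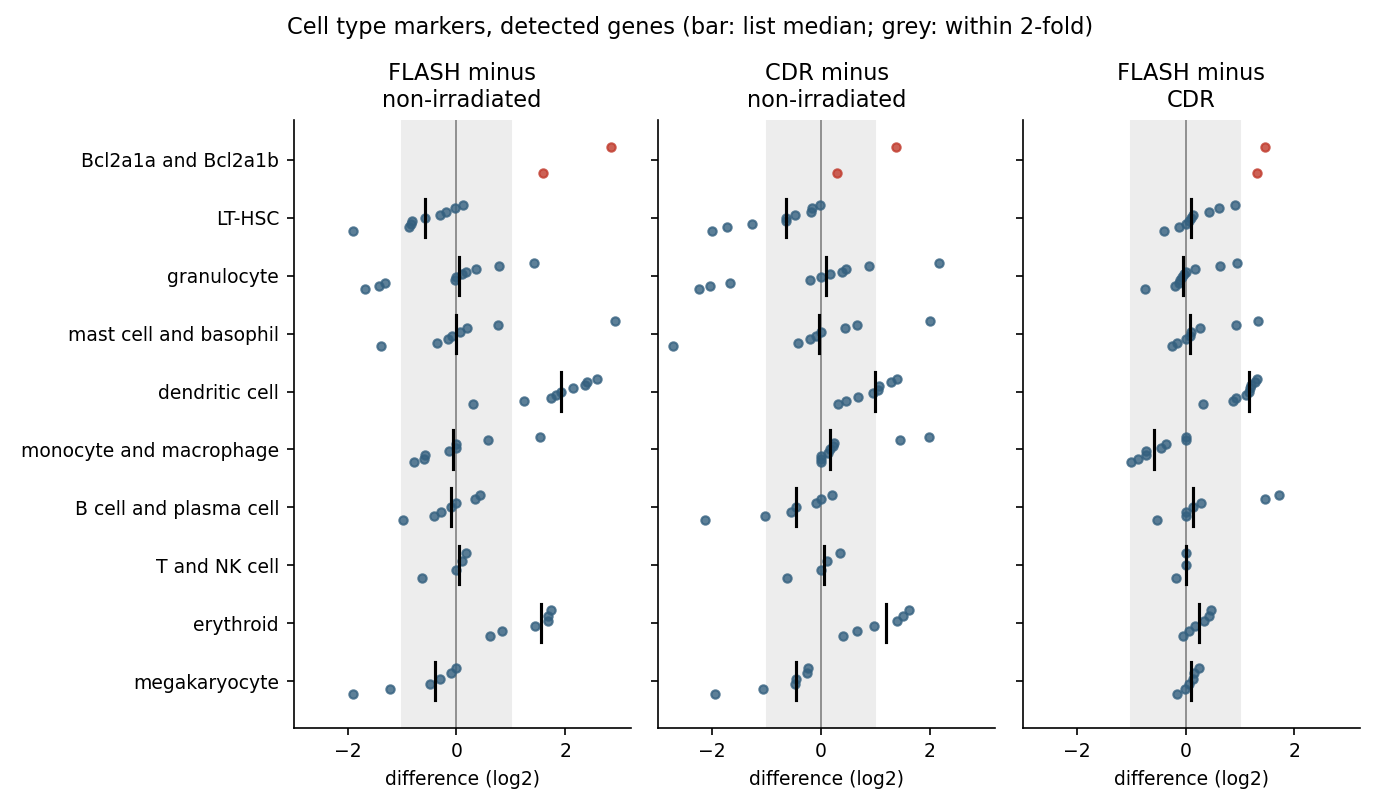
Log2 differences of the detected genes of 9 cell type marker lists (blue points, with the list median as a black bar) beside Bcl2a1a and Bcl2a1b (red), for the 3 comparisons; the grey band is within 2-fold. Dendritic cell genes have medians of 1.91, 0.996 and 1.16 in the 3 panels, and erythroid genes 1.56, 1.19 and 0.25.

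The genes with the pattern most like each copy were found by the Euclidean distance between their 2 differences from the non-irradiated array, over 11884 detected protein-coding genes outside antibody and T cell receptor segments. For Bcl2a1a they were Dnase1l3 (distance 0.13), Cd74 (0.24), Ccl22 (0.34), H2-Ab1 (0.36) and Cd36 (0.37). Cd74, the invariant chain of MHC class II, read 10.43 after FLASH, 9.15 after CDR and 8.68 without irradiation. For Bcl2a1b they were Plbd1 (0.26), Ifi205 (0.34), Naaa (0.46), H2-Eb1 (0.58) and Tpsb2 (0.62). Plbd1 read 8.86 after FLASH, 7.68 after CDR and 6.27 without irradiation. Likeness here covers 3 arrays and so 2 numbers per gene. It rests in part on readings under the detection level. Those were of Dnase1l3 on the CDR and non-irradiated arrays and of Ccl22, Ifi205 and Tpsb2 on the non-irradiated array. The copies' own readings without irradiation lay near that level. With the offset of 32, FLASH minus non-irradiated went from 1.59 to 0.85 for Bcl2a1a and from 2.84 to 1.87 for Bcl2a1b. The distances and order of all 10 genes are therefore uncertain. Of these 10 genes, 5 stand in the dendritic cell list (Cd74, H2-Ab1, Plbd1, Naaa and H2-Eb1) and Tpsb2 in the mast cell list. The dendritic cell list held 11 named genes, beside 11884 genes searched. It was drawn up with earlier results of these arrays known, so the overlap is a description and no separate support.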

How the data were processed

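RNA of LT-HSCs was read on 3 Affymetrix arrays, 1 per group. Deposited were the authors' processed levels of 25206 probe sets, taken as log2 from their range of 1.23 to 13.3. Per the submitters' processing notes Partek was used, in an unstated version. How they were background corrected, summarised and normalised is not given in the sources used here. In the platform's probe table, 23185 probe sets carried 1 gene symbol, 0 carried several, and 2021 stayed unnamed. Values were used as deposited and subtracted between arrays. A single array per group permits no test, SE or p-value, and precision is limited by the number of arrays. Members and gene lists were chosen with earlier results of these data known. Named were all members, up to 4 genes with large differences per list and comparison, markers at least 2-fold different, and 5 genes most like each Bcl2a1 copy. Some list genes with larger differences than those named were left out. Other genes, as examples or as near 0, were chosen after their values were seen. Promoters and biotypes are RefSeq's (GRCm38.p6). Alternatives tried were cyclic loess and quantile normalisation (limma 3.58.1, R 4.3.3), median centring, an offset of 32, and dim values raised to the detection level. Further ones were no filter or a stricter one (mean level above the 99th percentile of unexpressed genes), folds of 1.5 and 3, and the copies left out or averaged. The counting was tested on simulated data, with changes put only into genes well above the detection level. Changes in genes as dim as the Bcl2a1 copies without irradiation were not covered. Python 3.11.15, numpy 2.4.6 and pandas 2.3.3 were used.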

Additional observations from a re-analysis of the deposited data

How the results depend on the processing

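Counts of BCL2 family genes at least 2-fold different (2 for FLASH against non-irradiated, 1 for CDR against non-irradiated, 2 for FLASH against CDR) kept their values under median centring, quantile normalisation and cyclic loess. Raised dim values and no filter could not change them, since every measured family gene read above the detection level on every array. In the same order of comparisons the counts were 1, 0 and 1 with the offset, and 1, 0 and 1 with the stricter filter, which removes dim copies. They were 0, 0 and 0 without the Bcl2a1 copies, and 1, 0 and 1 with the copies averaged. At a fold of 3 they were 0 for CDR against non-irradiated and 0 for FLASH against CDR, and at 1.5 they were 3 for FLASH and 2 for CDR against non-irradiated. Of the 82 other list genes, 5 for FLASH and 7 for CDR against non-irradiated passed 1.5-fold. Shares over all detected genes were not counted at folds of 1.5 and 3, so the counts at those folds have no background beside them. Of 120 differences of single family genes under alternatives, 5 moved by more than the SD of the unexpressed genes, all of them Bcl2a1 copies with the offset, and 0 of those at least 2-fold changed sign. The 120 include those with raised dim values, which could not move. The smallest FLASH against non-irradiated difference of Bcl2a1b was 1.87. The sign of Bak1 and Bcl2 between FLASH and CDR turned under some scalings. No paired analysis was possible because each group had 1 array. Dim readings limit the Bcl2a1 folds.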

Other observations

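Few chromosomal neighbours of the Bcl2a1 copies were measured. None of those was 2-fold higher on an irradiated array than on the non-irradiated one, beside 1.17% (FLASH) and 0.766% (CDR) of all detected genes. With shares this small, so few neighbours say nothing about the region. Within 3 places on either side of Bcl2a1a, Bcl2a1b and Bcl2a1d the RefSeq gene table holds 18 genes, of which 3 had a named row. Mthfsl, next but one to Bcl2a1d, read 8.03 after FLASH, 7.81 after CDR and 8.41 without irradiation. Trim43c read 4.51, 5.22 and 5.05 in the same order, and 4930579C12Rik was under the detection level on all 3.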
